A study of Mus musculus with 2 samples.

Results

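The 41 genes described here name the GABAergic interneurons of the cerebral cortex and the subclasses into which they divide, among them 8 neuropeptide precursors and 15 transcription factors. They were taken as a fixed list of symbols, each matched to its gene through the symbol and gene identifier in the deposited transcript tables, and they are 41 of the 55536 annotated genes measured. All 41 symbols were found. The symbol Dlx6os1 also names a second, short RNA entry, with 0 counts in replicate 1 and 1 count in replicate 2, which was left out. By developmental origin and class, 9 genes are shared by most interneurons, 6 belong to neurogliaform and related cells, 12 to classes born in the medial ganglionic eminence (MGE), 13 to classes born in the caudal ganglionic eminence (CGE), and Pnoc to several classes.

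The 2 mice sampled were females of strain B6CASTF1/J, bred from a C57BL/6 and a CAST parent and 25 days old. Total RNA of the left cerebral cortex was sequenced, and the labels name neither a treatment nor a mutant allele. The mice are replicates 1 and 2 of a single group, so every comparison is within a library or between the animals, and replicate 1 stands on top of each ratio between them. Libraries started from 300 ng of RNA with synthetic ERCC spike-ins, and the expected counts of annotated genes summed to 31191535 in replicate 1 and 27079700 in replicate 2. The labels number the animals separately but cite 1 donor identifier. Separate animals were assumed, and otherwise the spread covers preparation only.

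Cortical interneurons release GABA, made from glutamate by the enzymes Gad1 and Gad2, and they differ in the cells they contact, in their firing and in the peptides they store. In mouse, MGE progenitors hand the transcription factor Lhx6 to parvalbumin and somatostatin cells, while CGE progenitors give rise to cells that make vasoactive intestinal peptide, cholecystokinin or calretinin, many under Prox1 and Nr2f2. Neurogliaform cells release GABA diffusely and carry Lamp5, reelin, Ndnf and neuropeptide Y. Several names on the list are also used outside interneurons: projection neurons make Cck, oligodendrocyte precursors use Sox6 and Prox1, and astrocytes use Id2 and Npas3.

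The tissue carried its own markers, with the cortical vesicular glutamate transporter Slc17a7 at 596 TPM in replicate 1 and 639 TPM in replicate 2 (TPM is a level per transcript length, scaled to a fixed total in each library). Several markers of neighbouring brain regions stood higher in replicate 1, and whether RNA of those regions was present in either library was not tested. The hypothalamic peptide gene Pmch had 482 expected counts in replicate 1 and 4 in replicate 2, and Hcrt had 120 in replicate 1 and 0 in replicate 2, where 0 allows up to 3 counts. All 10 striatal markers were higher in replicate 1, at a summed level of 564 TPM against 380 TPM in replicate 2. The share of these regions in the interneuron values was not tested, and their values are set beside the results they move with.

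Sequences are shown for somatostatin, its relative cortistatin and vasoactive intestinal peptide, because the Sst level is set against the levels of Cort and Vip in the results. Somatostatin (Sst) and cortistatin (Cort) are MGE peptides that act on the same receptors. Their precursors end in similar ring-forming peptides. The coding stretch for 9 residues, 105 to 113 of 116 in Sst and 97 to 105 of 109 in Cort, lies on the minus strand of mm10 at chr16:23889741-23889767 for Sst and chr4:149125279-149125305 for Cort. Of its 27 bases, 25 are the same, and capitals mark the 2 that differ.
Sst: tgcaagaacttcttctggaaGacAttc
Cort: tgcaagaacttcttctggaaAacCttc

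The promoter windows, from 250 bases before to 50 bases after each start, are RefSeq's on GRCm38.p6. Capitals mark the cAMP response element TGACGTCA or its core TGACG, searched on both strands (the core read on the other strand is CGTCA). The Sst window is chr16:23890795-23891094 on the minus strand, the Cort window chr4:149126714-149127013 on the minus strand and the Vip window chr10:5638968-5639267 on the plus strand.
Sst promoter: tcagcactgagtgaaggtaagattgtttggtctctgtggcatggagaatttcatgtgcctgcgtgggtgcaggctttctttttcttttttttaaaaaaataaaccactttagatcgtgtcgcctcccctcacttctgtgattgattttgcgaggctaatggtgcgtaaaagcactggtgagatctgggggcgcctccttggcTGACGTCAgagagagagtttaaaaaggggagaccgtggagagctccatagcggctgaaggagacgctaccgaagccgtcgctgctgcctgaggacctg
Cort promoter: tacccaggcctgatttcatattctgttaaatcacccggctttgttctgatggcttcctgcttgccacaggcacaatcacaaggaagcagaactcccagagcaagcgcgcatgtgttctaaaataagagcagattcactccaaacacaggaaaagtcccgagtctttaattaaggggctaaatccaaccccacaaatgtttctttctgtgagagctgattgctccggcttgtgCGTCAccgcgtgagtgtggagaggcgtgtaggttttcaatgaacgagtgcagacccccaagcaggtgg
Vip promoter: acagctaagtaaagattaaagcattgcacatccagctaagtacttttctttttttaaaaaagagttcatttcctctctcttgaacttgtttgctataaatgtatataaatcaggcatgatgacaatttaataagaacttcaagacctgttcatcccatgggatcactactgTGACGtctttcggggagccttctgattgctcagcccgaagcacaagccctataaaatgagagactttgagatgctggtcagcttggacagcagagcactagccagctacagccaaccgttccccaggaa
The full element stood 48 bases before the Sst start. The core alone stood 79 bases before the start of Vip, 18 before that of Cort and 47 before that of cholecystokinin (Cck, window not shown). Of all 32851 windows in the table, 1.79% held the full element and 20.8% the core, which every full element contains. Windows were found for 34 of the 41 genes; Calb2, Ndnf, Pnoc, Dlx6, Dlx5, Maf and Crh had none. Over all 52 windows of the 34 genes, 12 held the core (23.1%) and 1 the full element (1.92%), near those shares. The windows with the core included 4 of the 6 peptide genes that have a window. A match describes the letters of the window and is not a measured binding site.

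In all, 37 of the 41 genes reached 1 TPM in each of the 2 libraries and were called detected, against 12933 of 22015 nuclear protein-coding genes (58.7%). The 4 others were the cholinergic enzyme Chat, the lectin-like membrane protein Chodl, the synuclein Sncg and the transcription factor Sp8, and none of them was at 0 counts. Mean levels were at least 50 TPM for 8 genes, from 10 to 50 TPM for 15, from 1 to 10 TPM for 15 and under 1 TPM for 3. Together the list held 0.185% of the counts in replicate 1 and 0.176% in replicate 2. Because the tissue was sequenced in bulk, fewer cells of a type and less RNA per cell cannot be told apart.

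**Figure D1:**
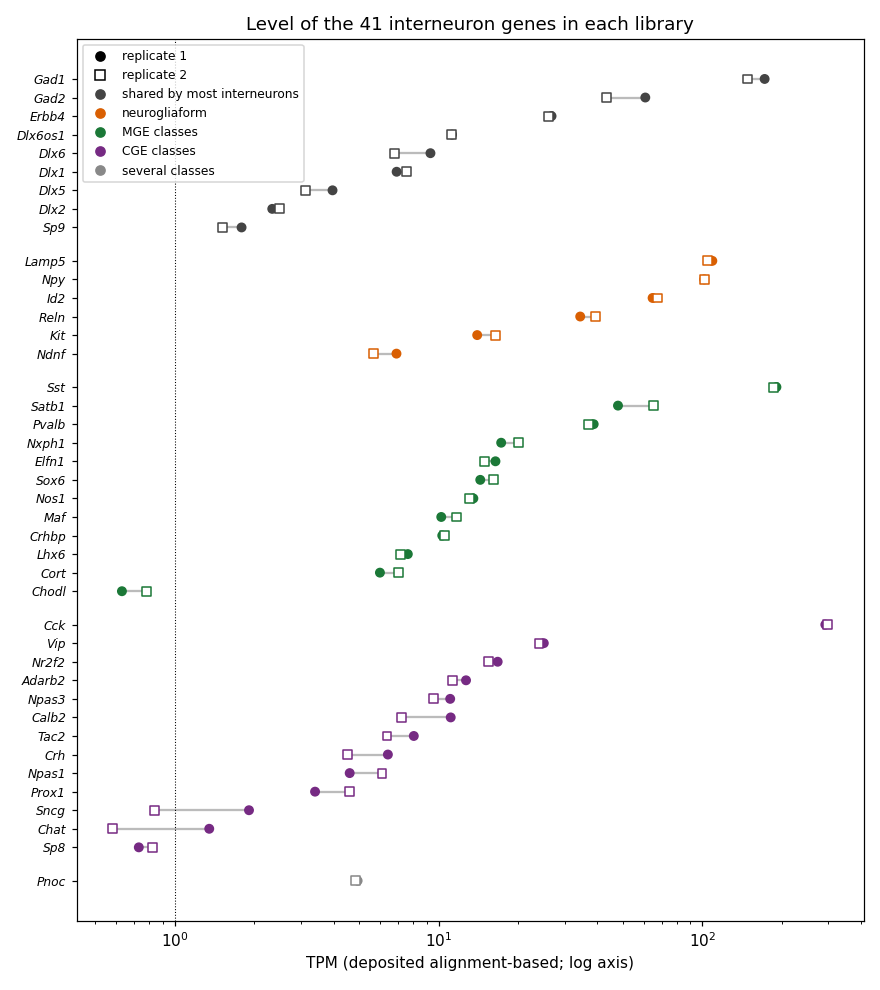
Level of each of the 41 genes in TPM (log axis), grouped by class and ordered by mean within it; filled circles are replicate 1, open squares replicate 2, and the dotted line is 1 TPM. Cck and Sst stand highest, at means of 295 and 189 TPM, and Chodl stands lowest at 0.705 TPM.

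In TPM, the highest levels belonged to peptides and to GABA synthesis. Cck, the precursor of cholecystokinin, was at 292 TPM in replicate 1 and 299 TPM in replicate 2. Sst was at 191 TPM in replicate 1 and 187 TPM in replicate 2. Gad1, the glutamate decarboxylase that makes most of the GABA for general use in the cell, was at 172 TPM in replicate 1 and 148 TPM in replicate 2. These 3 genes kept the same order in both libraries with no overlap, and among detected nuclear protein-coding genes their mean levels lay at percentile 98.8 for Cck, 97.4 for Sst and 96.6 for Gad1. Gad2 (chr2:22622205-22693874), the synaptic form of the enzyme, was at 60.7 TPM in replicate 1 and 43.4 TPM in replicate 2.

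The other 7 genes shared by most interneurons were lower in TPM. Erbb4, the neuregulin receptor of interneurons, was at 26.8 TPM in replicate 1 and 26.00 TPM in replicate 2. The Dlx homeobox factors, which specify GABAergic neurons, sit in convergent pairs: Dlx1 and Dlx2 on chromosome 2 with 9426 bases between them, and Dlx6 and Dlx5 on chromosome 6 with 9236 bases between them. Dlx1 was at 6.93 TPM in replicate 1 and 7.55 TPM in replicate 2, and Dlx2 was at 2.34 TPM in replicate 1 and 2.50 TPM in replicate 2. Dlx6 was at 9.31 TPM in replicate 1 and 6.79 TPM in replicate 2, and Dlx5 was at 3.96 TPM in replicate 1 and 3.12 TPM in replicate 2. Dlx1 and Dlx6 were thus the higher members of their pairs in both libraries. Dlx6os1 (Evf2), a long RNA antisense to Dlx6, was at 11.2 TPM in both libraries. Sp9, a zinc-finger factor of newborn interneurons, was near the detection limit at 1.79 TPM in replicate 1 and 1.52 TPM in replicate 2.

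All 6 neurogliaform genes were detected. Lamp5 (chr2:136052239-136069917), a membrane protein of synaptic vesicles in GABAergic neurons, was at 109 TPM in replicate 1 and 104 TPM in replicate 2. Npy (chr6:49822710-49829507), the neuropeptide Y precursor, was at 102 TPM in each library. The helix-loop-helix inhibitor Id2 averaged 66.1 ± 1.94 TPM, reelin (Reln), a secreted glycoprotein that guides migrating neurons, 36.9 ± 3.46 TPM, and the receptor Kit 15.2 ± 1.68 TPM (SD, n = 2). Ndnf, a secreted factor of layer 1 cells, was at 6.92 TPM in replicate 1 and 5.67 TPM in replicate 2. Pnoc, the nociceptin precursor, found in several classes, was at 4.93 TPM in replicate 1 and 4.85 TPM in replicate 2. Markers of Cajal-Retzius cells, another cortical source of reelin, were close to absent, with 0 of 4 detected. Their summed level was 0.60 TPM in replicate 1 and 0.48 TPM in replicate 2. Which cells made the Reln RNA was not tested. Mast cells, which use Kit, had 0 of 4 markers detected and a summed level of 0.09 TPM in replicate 1 and 0.06 TPM in replicate 2, with Mcpt4 at 0 counts in both.

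Among the 12 MGE genes, 11 were detected. Behind Sst came the chromatin organizer Satb1, with 47.9 TPM in replicate 1 and 65.5 TPM in replicate 2, a gene that projection neurons of the cortex also use. Pvalb (chr15:78191114-78206400), the calcium buffer of fast-spiking basket and chandelier cells, was at 38.7 TPM in replicate 1 and 37.1 TPM in replicate 2. The synaptic genes Nxph1 (neurexophilin) and Elfn1, a trans-synaptic protein of somatostatin-cell inputs, averaged 18.6 ± 1.96 and 15.7 ± 1.03 TPM (SD, n = 2). Nos1, the neuronal nitric oxide synthase, averaged 13.3 ± 0.346 TPM and the corticotropin-releasing hormone binding protein Crhbp 10.4 ± 0.163 TPM. The transcription factors Sox6, Maf and Lhx6 averaged 15.3 ± 1.24, 10.95 ± 1.02 and 7.40 ± 0.339 TPM. Cort was at 5.99 TPM in replicate 1 and 7.03 TPM in replicate 2. Chodl, which with Nos1 marks the rare long-range somatostatin cells, was at 0.63 TPM in replicate 1 and 0.78 TPM in replicate 2, from 32 and 22 counts.

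Among the 13 CGE genes, 10 were detected. Cck led, and Vip (chr10:5639218-5647617), the peptide of interneuron-selective cells, followed at 25.04 TPM in replicate 1 and 24.0 TPM in replicate 2. The transcription factors ran from Nr2f2 (COUP-TFII) at 16.1 ± 0.891 TPM through Npas3 at 10.3 ± 1.06, Npas1 at 5.35 ± 1.06 and Prox1 at 4.01 ± 0.856 TPM to Sp8 at 0.775 ± 0.0636 TPM (SD, n = 2). Adarb2, an RNA-editing enzyme relative that marks CGE cells, averaged 12.0 ± 0.969 TPM. Calb2 (calretinin) was at 11.1 TPM in replicate 1 and 7.22 TPM in replicate 2. The tachykinin gene Tac2 was at 8.05 TPM in replicate 1 and 6.37 TPM in replicate 2, and the stress peptide gene Crh was at 6.42 TPM in replicate 1 and 4.50 TPM in replicate 2. Sncg and Chat lay on either side of 1 TPM, with Sncg at 1.91 TPM in replicate 1 and 0.84 TPM in replicate 2 and Chat at 1.35 TPM in replicate 1 and 0.58 TPM in replicate 2. These 4 genes, Calb2, Crh, Sncg and Chat, were all higher in replicate 1.

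By median, the 6 neurogliaform genes stood above the MGE and CGE genes, although Ndnf averaged 6.30 TPM. The part of other cells in the class medians was not tested. The neurogliaform median was 49.6 TPM in replicate 1 and 53.4 TPM in replicate 2. For the CGE genes it was 8.05 TPM in replicate 1 and 6.37 TPM in replicate 2. On the log2(TPM + 1) scale the difference of medians was 2.62 ± 0.30 (SD, n = 2 libraries). The MGE median was 13.96 TPM in replicate 1 and 14.01 TPM in replicate 2, which is 0.87 ± 0.21 above the CGE median on the same scale. That difference was 1.72 in CPM, which scales counts to the library size and does not divide by length, and 0.56 over detected genes only. The median of the 8 peptides was 16.5 TPM in replicate 1 and 15.5 TPM in replicate 2, against 7.64 TPM in replicate 1 and 7.16 TPM in replicate 2 for the 15 transcription factors, a log2 difference of 0.81 ± 0.02. Members of a class are not replicates, so these are descriptions with no test. The peptide order depends on length: in CPM the peptide median lay below that of the factors, at -0.35 on the log2 scale. The classes also overlap widely, from 6.30 to 107 TPM in mean level for neurogliaform genes, from 0.705 to 189 TPM for MGE genes and from 0.775 to 295 TPM for CGE genes.

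The balance between marker genes was set out as ratios of TPM for 16 pairs, and 9 pairs were at least 2-fold apart in both libraries. The pairs were chosen with earlier results of these data known, so the count describes only them. Sst stood over Vip 7.62-fold in replicate 1 and 7.76-fold in replicate 2, and in CPM 3.28-fold in replicate 1 and 3.34-fold in replicate 2. Sst stood over Cort, its close relative in the aligned coding stretch, 31.8-fold in replicate 1 and 26.5-fold in replicate 2. Npy over Sst was 0.532-fold in replicate 1 and 0.546-fold in replicate 2, and Calb2 over Vip was 0.444-fold in replicate 1 and 0.301-fold in replicate 2. The calcium-binding proteins gave Pvalb over Calb2 at 3.48-fold in replicate 1 and 5.13-fold in replicate 2. Sst over Vip and Npy over Sst were close between the animals. Sst over Cort was further apart, and both ratios with Calb2 were further apart still.

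Regulators of the 2 eminences were compared in the same way. Lhx6 over Prox1 was 2.25-fold in replicate 1 and 1.55-fold in replicate 2, and Lhx6 over Adarb2 was 0.602-fold in replicate 1 and 0.632-fold in replicate 2. In CPM, without length correction, Lhx6 over Prox1 was 1.01-fold in replicate 1 and 0.736-fold in replicate 2, so its mean turned to -0.21 ± 0.328 on the log2 scale. Sox6 over Prox1 was 4.23-fold in replicate 1 and 3.50-fold in replicate 2. Within the homeobox pairs, Dlx1 stood over Dlx2 2.96-fold in replicate 1 and 3.02-fold in replicate 2, Dlx6 over Dlx5 2.35-fold in replicate 1 and 2.18-fold in replicate 2, and Dlx6os1 over Dlx6 1.21-fold in replicate 1 and 1.65-fold in replicate 2. Sp9 over Sp8 averaged 2.13-fold, Npas3 over Npas1 1.94-fold and Crhbp over its ligand Crh 1.94-fold. Lamp5 over Ndnf averaged 17.0-fold. In CPM the averages were 5.20-fold for Lamp5 over Ndnf, 3.09-fold for Npas3 over Npas1 and 4.36-fold for Dlx6os1 over Dlx6. Gad1 over Gad2 was 2.83-fold in replicate 1 and 3.42-fold in replicate 2, and in CPM 1.19-fold in replicate 1 and 1.52-fold in replicate 2.

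Some of these ratios rest on very short annotated transcripts, where few reads weigh heavily in TPM. In 6 of the 41 genes, transcripts under 600 nt held at least 20% of the gene's TPM in both libraries. In Sox6 they held 43.6% of the TPM in replicate 1 and 51.2% in replicate 2 from 4.05% and 4.71% of the counts. In Ndnf a 527 nt retained-intron transcript held 58.6% of the TPM in replicate 1 and 45.7% in replicate 2 from 36.1 and 19.4 counts. In Npas3 a 214 nt transcript held 51.1% of the TPM in replicate 1 and 28.5% in replicate 2 from 13.5 and 5.46 counts. The other 3 genes were Gad1, with 27.7% in replicate 1 and 25.97% in replicate 2, Elfn1, with 27.95% in replicate 1 and 26.8% in replicate 2, and Dlx6os1, with 33.6% in replicate 1 and 41.02% in replicate 2.

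Leaving such transcripts out of the genes that have a longer one, a step chosen after seeing the data, kept 37 genes detected and 7 pairs at least 2-fold apart. Sox6 over Prox1 was then 2.02-fold on average against 3.85-fold with all transcripts, Gad1 over Gad2 2.28-fold against 3.11-fold, and Npas3 over Npas1 1.15-fold against 1.94-fold. Lamp5 over Ndnf was 35.8-fold against 17.0-fold, with Ndnf at a mean of 2.97 TPM against 6.30 TPM. Dlx6 over Dlx5 was 1.93-fold against 2.26-fold and so no longer 2-fold apart. Dlx6os1 over Dlx6 was 1.03-fold against 1.41-fold, and in replicate 1 it stood at 0.965-fold. The differences between class medians moved less, to 2.76 for neurogliaform minus CGE, 0.75 for MGE minus CGE and 0.87 for peptides minus transcription factors.

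Between the animals, most interneuron genes were close and the departures ran mainly toward replicate 1. Ratios of CPM scaled by TMM, a factor that offsets differences in library makeup, had a median log2 of 0.06 over the 39 genes with a mean of at least 1 CPM, against -0.00116 over the 15682 annotated genes past that minimum. Of these 39 genes, 26 were higher in replicate 1 and 13 higher in replicate 2. Of the 15682 annotated genes, 7800 were higher in replicate 1 and 7882 higher in replicate 2. At 1.5-fold, 3 genes were called higher in replicate 1, where 1.65% of all genes tested were, and 0 genes were called higher in replicate 2, where 3.83% of all genes were. At a difference of 25% the counts were 7 genes higher in replicate 1 (5.41% of all genes) and 1 gene higher in replicate 2 (10.9% of all genes). At 2-fold they were 1 gene higher in replicate 1 (0.536%) and 0 genes higher in replicate 2 (0.497%). With 1 library per animal there is no test, and the intervals given are exact 95% intervals for counting error only. Of the 39 genes, 13 had an interval above 1, as had 16.2% of all genes tested, and 6 had one below 1, as had 16.0% of all genes tested.

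**Figure D2:**
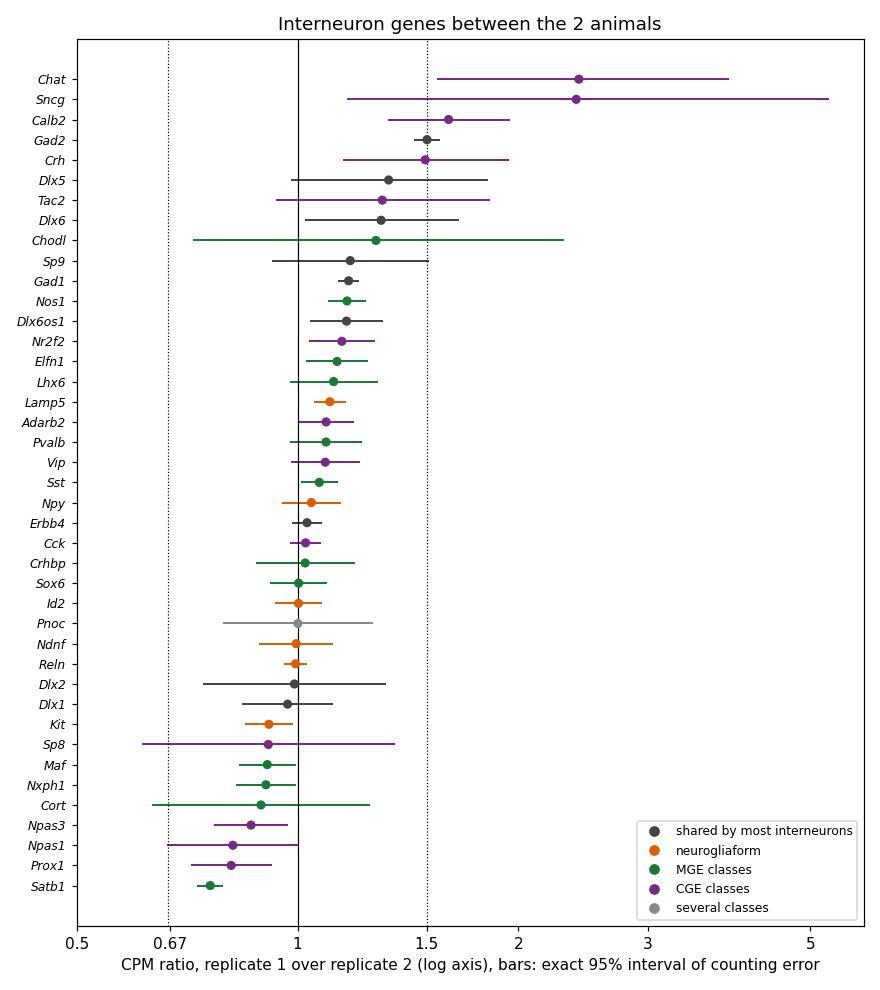
Ratio of scaled CPM, replicate 1 over replicate 2 (log axis), for the 41 genes from highest to lowest; bars are exact 95% intervals of counting error, the solid line is 1 and dotted lines mark 1.5-fold in each direction. Chat at 2.42 and Calb2 at 1.61 lie to the right, Satb1 at 0.760 lies lowest, and Sst, Pvalb, Vip and Npy lie between 1.04 and 1.09.

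The 3 called genes were Chat, Calb2 and Gad2. Chat, which makes acetylcholine and marks a small set of Vip cells, had 77 counts in replicate 1 and 28 in replicate 2, a ratio of 2.42 (1.55 to 3.87). Calb2 had 307 counts in replicate 1 and 168 in replicate 2, a ratio of 1.61 (1.33 to 1.95). Gad2 had 6639 counts in replicate 1 and 3888 in replicate 2, a ratio of 1.501 (1.44 to 1.56). Gad2 sat on the threshold: its ratio was 1.48 with library size alone and 1.53 in the FASTQ-based table. Crh sat just under it, with 163 counts in replicate 1 and 96 in replicate 2, a ratio of 1.49 (1.15 to 1.94), and 1.60 in the FASTQ-based table. Sncg had 30 counts in replicate 1 and 11 in replicate 2, too few for the minimum, with a ratio of 2.40 (1.17 to 5.30).

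The ratios of the main class markers were 1.07 for Sst (1.01 to 1.14), 1.09 for Pvalb (0.977 to 1.22), 1.09 for Vip (0.979 to 1.22), 1.04 for Npy (0.951 to 1.15), 1.03 for Cck (0.977 to 1.08) and 0.994 for Reln (0.958 to 1.03). In the FASTQ-based table Npy turned to 0.838, below the interval just given, Sst turned to 0.997 and Reln to 1.02, while Pvalb was at 1.02, Vip at 1.15 and Cck at 1.05. The 6 genes whose interval lay below 1 were Satb1, Prox1, Npas3, Maf, Nxph1 and Kit, of which 4 are transcription factors. Satb1 had the lowest ratio at 0.760 (0.730 to 0.792), followed by Prox1 at 0.812 (0.715 to 0.922). By class, the median log2 ratio was 0.21 for genes shared by most interneurons, with 7 of 9 higher in replicate 1. It was -0.000946 for the 6 neurogliaform genes, 0.03 for the 11 MGE genes past the minimum and 0.12 for the 12 CGE genes. Of the 8 peptide genes 7 were higher in replicate 1, with Pnoc at 1.001, and 5 of 8 were in the FASTQ-based table, where Sst and Npy turned. Of the 15 transcription factors 7 were higher in replicate 1 and 8 in replicate 2, and 9 were higher in replicate 1 in the FASTQ-based table.

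Genes of other cells moved in the same comparison. The 10 striatal markers had a median log2 ratio of 0.64, and 7 of them passed 1.5-fold, among them the phosphoprotein Ppp1r1b at 1.53-fold and proenkephalin (Penk) at 1.70-fold. Striatal projection neurons are themselves GABAergic and use Gad1, Gad2 and Dlx genes. The Dlx genes did not all move with the striatal markers. Dlx5 was higher in replicate 1 at 1.33-fold (0.979 to 1.82), and so was Dlx6 (interval 1.02 to 1.66). Dlx1 at 0.969-fold and Dlx2 at 0.990-fold were not, and their intervals hold 1. The 5 genes of GABA transport and breakdown all stood higher in replicate 1 (median log2 ratio 0.24), and the vesicular transporter Slc32a1, which striatal and cortical GABA neurons share, stood at 1.32-fold. All 6 projection neuron markers were lower in replicate 1, with a median of -0.23 (20.6 to 617 TPM in mean level), and Satb1 moved with them. The part of striatal or projection neuron RNA in the Gad2, Dlx and Satb1 values was not tested.

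Cholinergic markers moved with Chat. The choline transporter Slc5a7 had 160 counts in replicate 1 and 58 in replicate 2, the basal forebrain factor Lhx8 had 55 in replicate 1 and 3 in replicate 2, and the acetylcholine transporter Slc18a3 had 56 in replicate 1 and 20 in replicate 2. All 5 markers of the list were higher in replicate 1, at a summed level of 5.79 TPM in replicate 1 against 1.77 TPM in replicate 2. Slc18a3 lies within the Chat gene on the same strand. The 7 hypothalamic markers summed to 58.6 TPM in replicate 1 and 2.15 TPM in replicate 2, with Agrp at 0 counts in both and Avp at 88.3 counts in replicate 1 and 3 in replicate 2. Crh, Calb2 and Tac2 are also made in the hypothalamus. The part of these neurons in the Chat, Crh, Calb2 and Tac2 values was not tested.

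**Figure D3:**
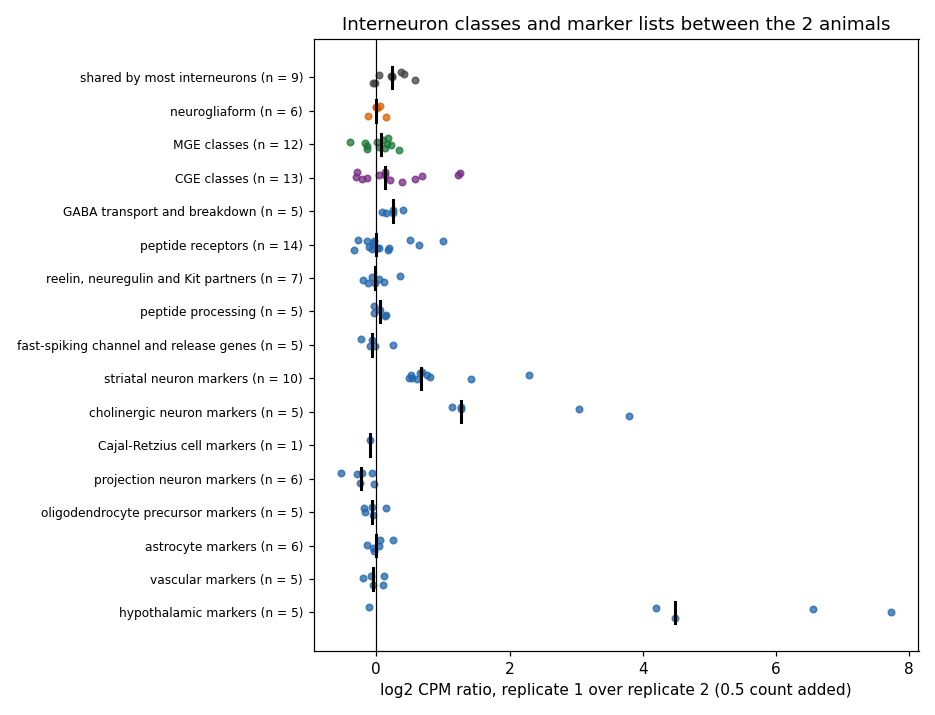
log2 ratio of scaled CPM, replicate 1 over replicate 2, with 0.5 count added, for the interneuron classes and for further gene lists; each point is a gene with at least 20 counts over both libraries (all members are shown except Pnoc), and black bars are medians. Striatal, cholinergic and most hypothalamic markers lie right of 0, projection neuron markers lie left of it, and the neurogliaform genes lie close to it.

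Markers of glia and vessels, which could lend RNA of Sox6, Id2, Npas3 or Maf, were mixed. Of the oligodendrocyte precursor markers 1 of 5 was higher in replicate 1 (median log2 ratio -0.06, led by Olig1 at a mean of 53.0 TPM), of the astrocyte markers 3 of 6 (median 0.00313) and of the vascular markers 2 of 5 (median -0.05). The summed level of the precursor markers was 95.6 TPM in replicate 1 and 110 TPM in replicate 2. Their part in the transcription factor values was not tested.

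Of the 41 genes, 36 have more than 1 annotated transcript, and in 20 of these 36 the leading transcript held at least 50% of the gene's TPM in both libraries. The leader was the same in both libraries for 30 genes and the same in both quantifications for 28. Erbb4 split between the 12037 nt Erbb4-202, with 51.0 ± 3.03% of its TPM (SD, n = 2), and the 2196 nt Erbb4-205, with 42.3 ± 0.283%. Maf split evenly between Maf-202 at 50.3 ± 1.02% and Maf-201 at 49.7 ± 1.02%. The leading Adarb2 transcript, at 36.2 ± 0.955%, is annotated as a target of nonsense-mediated decay. Reln-207 held 66.1 ± 3.93% of reelin and Nos1-206 80.6 ± 4.87% of Nos1.

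The FASTQ-based table, made from the reads without the alignment step, divided several genes otherwise. Gad1-201, the main coding transcript, held 89.7 ± 0.362% there against 37.4 ± 4.67% in the alignment-based table. Pvalb-201 held 100% there against 58.0 ± 0.552%. Cck-201 held 28.8 ± 3.94% there against 93.6 ± 0.99%, behind Cck-203 with 41.8 ± 3.25%. Id2-201 held 50.3 ± 10.2% there against 96.9 ± 0.396%, and Lamp5-201 held 77.8 ± 1.29% there against 41.5 ± 2.19%.

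Counts of some short genes also depended on the method. FASTQ-based over alignment-based counts were 0.583 in replicate 1 and 0.563 in replicate 2 for Cort, 0.599 in replicate 1 and 0.771 in replicate 2 for Npy, 0.764 in replicate 1 and 0.849 in replicate 2 for Sst, and 0.798 in replicate 1 and 0.888 in replicate 2 for Pvalb, against a median of 1.07 over coding genes. Npy, Sst and Pvalb lay further below 1 in replicate 1 than in replicate 2. Other short peptide genes did not lie so low, with Cck at 0.982 in replicate 1 and 0.995 in replicate 2 and Tac2 at 0.957 in replicate 1 and 1.11 in replicate 2. Chodl went the other way, at 3.02 in replicate 1 and 3.28 in replicate 2, and 71.5% of its FASTQ-based TPM was in the retained-intron transcript Chodl-204, which had 0% in the alignment-based table. TPM of the 41 genes was mostly higher in the FASTQ-based table than in the alignment-based one. Cck averaged 682 TPM there against 295 TPM, Sst 330 against 189 TPM and Npy 189 against 102 TPM. Gad1 averaged 167 against 160 TPM, below Npy in the FASTQ-based table, and Npas3 was lower there, at 8.58 against 10.3 TPM. In the FASTQ-based values, 40 of the 41 genes were detected.

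**Figure D4:**
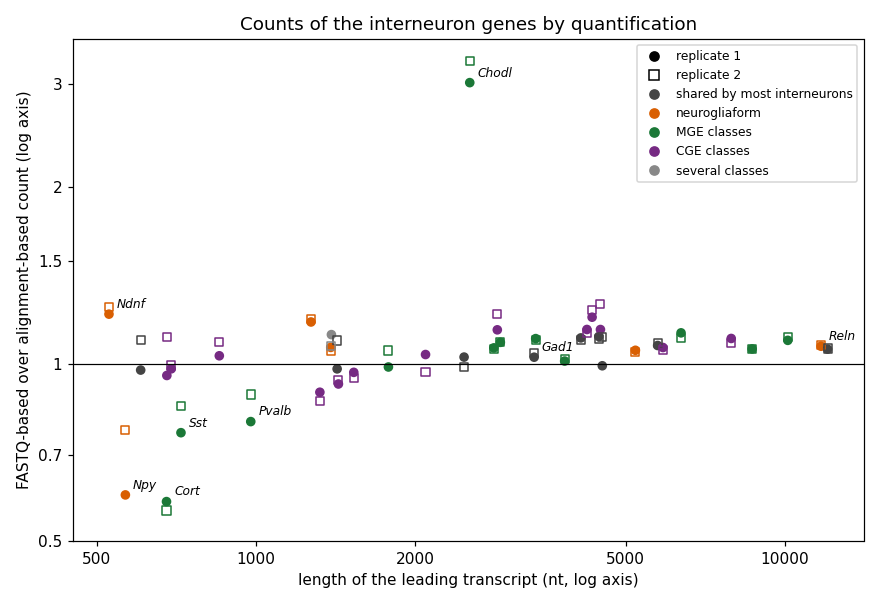
FASTQ-based over alignment-based count (log axis) against the length of the leading transcript in nt (log axis) for the 41 genes; filled circles are replicate 1, open squares replicate 2, colours are classes and the line is 1. Npy, Cort, Sst and Pvalb lie below 1 and Chodl lies above 3.

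Some members overlap other genes, and whether counting used strand is not stated in the sources used here. Dlx6 and Dlx6os1 lie on opposite strands of the same stretch of chromosome 6 (chr6:6863334-6868568 within chr6:6820189-6871592), so their reads could not be told apart without strand. Dlx1 overlaps the antisense RNA Dlx1as, which had 88 counts in replicate 1 and 65 in replicate 2. The values of these genes carry that uncertainty.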

How the data were processed

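The members, classes, further gene lists and pairs were chosen with earlier results of these data known. Per the deposited file headers and their accompanying description, the authors quantified reads on mm10 with GENCODE M21. From aligned reads they deposited gene tables of expected counts and TPM and transcript tables with each transcript's percent of its gene's TPM. From the FASTQ files they deposited estimated counts and TPM of transcripts, which were summed per gene here. No source used here names the aligner or quantifiers. The authors scaled TPM over all entries. Entries that carry only a number (26248, 6.39e-06% of counts in replicate 1 and 1.81e-05% in replicate 2) and spike-in entries (0.350% and 0.378%) stayed out of library sizes and comparisons.

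Rounded expected counts gave TMM factors from edgeR 4.0.16 in R 4.3.3 (0.994 in replicate 1 and 1.01 in replicate 2). DESeq2 1.42.0 size factors were an alternative scaling only. Detection needed 1 TPM in both libraries. Levels are log2(TPM + 1) and animal ratios log2(CPM + 1) at a mean of at least 1 CPM, where the added 1 shrinks differences of low genes, while single-gene folds are plain ratios. Calls used 1.5-fold. No test between groups exists with 1 group of 2 libraries. Intervals cover counting error only, because each animal has 1 library. Reads carry no molecular identifiers, so copies of the same molecule were counted as separate reads and the intervals may be too narrow. A gene of a further list is not reported here. All 41 members are named, with up to 3 of the most abundant genes of each further list. Genes at 0 counts in both libraries and the called peptide receptors are named after their values were seen. Alternatives were the FASTQ-based table, CPM without length, other pseudocounts, minimums, folds and scalings, and leaving out each library. The rest used Python 3.11.15 with scipy 1.17.1, numpy 2.4.6, matplotlib 3.10.9, pandas 2.3.3 and Biopython 1.88.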

Additional observations from a re-analysis of the deposited data

How the results depend on the processing

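No paired analysis was possible because the samples form 1 group. In CPM without length correction the MGE minus CGE difference moved to 1.72, peptides minus transcription factors reversed to -0.35 and Lhx6 over Prox1 reversed to -0.21 (log2). Over detected genes only, MGE minus CGE was 0.56, neurogliaform minus CGE 2.25 and peptides minus transcription factors 0.73. The last was 0.87 with a pseudocount of 0.1 and 0.87 without transcripts under 600 nt. Leaving out 1 library gave 0.72 to 1.02 for MGE minus CGE, 2.41 to 2.83 for neurogliaform minus CGE, 0.80 to 0.83 for peptides minus transcription factors, 37 to 39 genes detected and 10 to 12 pairs at least 2-fold apart. The median log2 ratio between animals was 0.043 with library size alone, 0.078 in the FASTQ-based table and 0.097 with no minimum CPM. Genes called higher in replicate 1 were 7 at a 25% difference and 1 at 2-fold, 2 with library size alone, 4 in the FASTQ-based table and 4 with no minimum CPM; higher in replicate 2, 1 was called at a 25% difference. Of the 16 pair ratios, 12 moved beyond the SD between libraries and 1 reversed in CPM, 9 moved in the FASTQ-based table and 6 without short transcripts. The cause of these shifts was not tested.

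A pair of libraries gives each SD 1 degree of freedom at best, and Chodl, with 32 counts in replicate 1 and 22 in replicate 2, showed no difference between the animals detectable at this depth.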

Other observations

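Receptors for the peptides of these cells were largely present. Of 15 receptor genes, 11 were detected, led by the cholecystokinin receptor Cckbr at 24.4 TPM in replicate 1 and 27.7 TPM in replicate 2, the nociceptin receptor Oprl1 at 24.5 TPM in replicate 1 and 21.8 TPM in replicate 2, and the somatostatin receptor Sstr1 at 16.4 TPM in replicate 1 and 20.8 TPM in replicate 2. Cckbr stood near Oprl1 in TPM, while the Cck precursor stood at 295 TPM and the Pnoc precursor at 4.89 TPM on average. The other peptides and receptors were not compared in this way. The receptors not detected were Vipr2, Cckar, Crhr2 and Tacr3. The last 2, of 13 receptor genes past the minimum CPM, were at least 1.5-fold higher in replicate 1, as were 1.65% of all genes tested. Crhr2 had 52 counts in replicate 1 and 29 in replicate 2, a ratio of 1.58 with an interval that holds 1 (0.982 to 2.58). Tacr3, the receptor for the Tac2 peptide, had 87 counts in replicate 1 and 38 in replicate 2, a ratio of 2.01 (1.36 to 3.03).

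All 7 genes that work with reelin, Erbb4 or Kit were detected, with the reelin adaptor Dab1 at 48.3 TPM in replicate 1 and 49.8 TPM in replicate 2, the reelin receptor Lrp8 at 36.4 TPM in replicate 1 and 40.98 TPM in replicate 2 and the ligand Nrg3 at 31.6 TPM in replicate 1 and 37.6 TPM in replicate 2. All 5 peptide processing genes were detected, and the carboxypeptidase Cpe, at 1005 TPM in replicate 1 and 1076 TPM in replicate 2, stood above every peptide precursor of the list. The 5 genes reported here for fast spiking, fast release and the perineuronal net were all detected, led by the potassium channels Kcnc1 at 57.0 TPM in replicate 1 and 60.8 TPM in replicate 2 and Kcnc2 at 37.5 TPM in replicate 1 and 41.8 TPM in replicate 2. Hapln4, a link protein of the net, was at 31.3 TPM in replicate 1 and 33.4 TPM in replicate 2. Between the animals the median log2 ratio of these 5 genes was -0.06, with 1 of them higher in replicate 1, beside Pvalb at 1.09-fold.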
